A study of Mus musculus with 5 samples.

Results

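The cytosolic ribosomal protein genes were examined in a list of H3K27ac peaks from mouse bone marrow cells labelled as lacking Mll3 and Mll4. Members were the protein-coding genes of the GRCm38 gene table whose symbol is Rpl or Rps followed by a number, with the optional letters a, l, x or y, together with Rplp0, Rplp1, Rplp2 and Rpsa. S6 kinase genes and pseudogenes were left out. This gave 82 genes of 21887 protein-coding genes, with 31 of the small ribosomal subunit, 48 of the large subunit and the 3 genes of the stalk, a flexible arm of the large subunit that recruits translation factors. They lay on 19 chromosomes, with 14 on chromosome 7 and 4 on the X chromosome.

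Per the labels, 4 H3K27ac libraries and 1 input library were made by ChIPmentation, which adds sequencing adapters to immunoprecipitated chromatin with the Tn5 transposase. All came from bone marrow cells sorted for CD45.2, Sca1 and Kit and against lineage markers, called there HSC/MPP (haematopoietic stem cells and multipotent progenitors), with the genotype Mll3/4 deleted. The labels give no age, sex, strain or Cre driver, and do not say whether animals were pooled or whether CD45.2 marks transplanted cells. The deposited list joined the 4 libraries in 22948 peaks and held no value of a single library and no other genotype, so no replicate error, no test and no gain or loss against control cells could be had. Of the genes of the sorting gate and early progenitors, Kit, Ptprc and Flt3 had a peak at an end, while Ly6a, which encodes Sca1, and Cd34 had none. Of 9 genes that mark mature blood lineages, 8 had no peak at an end and 1 had one.

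A ribosome reads messenger RNA on its small subunit and joins amino acids on its large subunit, and each of its proteins is made from its own gene, mostly in near equal amounts. The genes are short and used in nearly all cells, their messenger RNAs start with a C followed by a run of pyrimidines through which mTOR and LARP1 control their translation, and their introns often hold small nucleolar RNAs (snoRNAs). Acetylation of histone H3 at the lysine named in H3K27ac marks active promoters and enhancers. Loss of a single copy of several of these genes causes Diamond-Blackfan anaemia in people, in which red cell production fails.

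The sequences around the start show the pyrimidine run for members with strong (Rps27), middling and weak (Rps10) peaks, for Rpl18, whose peak lay away from its ends, and for 3 paralogs without a peak. Each line holds 15 bases before and 15 bases from the RefSeq start of assembly GRCm38.p6, on the strand of the gene. Capitals mark the longest run of C and T that reaches within 30 bases of the start, where it falls in the printed window.
Rps27, chr3:90213634-90213663, minus strand: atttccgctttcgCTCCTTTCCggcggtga
Rpl35, chr2:39005117-39005146, minus strand: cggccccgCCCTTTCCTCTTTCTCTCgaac
Rpl15, chr14:18270972-18271001, minus strand: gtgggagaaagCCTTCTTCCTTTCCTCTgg
Rpl28, chr7:4792950-4792979, plus strand: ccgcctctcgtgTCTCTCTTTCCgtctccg
Rpl38, chr11:114668565-114668594, plus strand: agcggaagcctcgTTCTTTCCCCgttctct
Rpl18, chr7:45718056-45718085, plus strand: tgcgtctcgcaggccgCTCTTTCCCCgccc
Rps10, chr17:27635230-27635259, minus strand: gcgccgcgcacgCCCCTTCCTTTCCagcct
Rpl10l, chr12:66284387-66284416, minus strand: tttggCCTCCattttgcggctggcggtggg
Rpl3l, chr17:24727811-24727840, plus strand: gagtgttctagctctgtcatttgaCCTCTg
Rpl39l, chr16:10170213-10170242, plus strand: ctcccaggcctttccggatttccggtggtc
The signal value is the authors' column for the strength of a peak, read as the ratio of the H3K27ac pileup over background. The run spanned the start in Rps27, where it was 9 bases long, and in Rps10, where it was 13 bases long, although these 2 genes lay near opposite ends of the range of signal values given below. In Rpl10l and Rpl3l the longest run was 5 bases. Short runs were not particular to genes without a peak, since the longest was 5 bases in Rps28 and 4 bases in Rpl41 and Rpl10, which had peaks with signal values of 10.3, 9.52 and 6.61. All the printed members with a peak, and Rpl18, hold the letters CTTTCC, which 10 of 62 members did. The run of Rpl39l, 9 bases long, lay outside the printed window, since it began 26 bases before the start.

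A gene was counted as having a peak at an end when one reached into the window from 1 kb before to 1 kb after either of its ends. Of the 82 ribosomal protein genes, 75 had such a peak (91.5%, 95% Wilson interval over genes 83.4% to 95.8%), against 36.2% of all protein-coding genes. All 31 small subunit genes had one, as did the 3 stalk genes and 41 of the 48 large subunit genes. The strongest peak of all 75 had a q-value of at most 0.05 in the authors' list, as did that of 7538 of the 7929 protein-coding genes with a peak. With only peaks of −log10 q of at least 5, 67 members were left, or 81.7%, against 24.0% of all protein-coding genes. The Wilson intervals cover counting over genes only.

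Proteins of the mitochondrial ribosome, translation factors and proteasome subunits are also made in most cells, and their genes were counted the same way. A peak at an end was found at 53 of 78 mitochondrial ribosomal protein genes (67.9%, interval 57.0% to 77.3%). It was found at 55 of 70 initiation and elongation factor genes (78.6%, 67.6% to 86.6%) and at 33 of 39 proteasome subunit genes (84.6%, 70.3% to 92.8%). The interval of the cytosolic ribosomal protein genes overlapped those of the translation factors and the proteasome, and not that of the mitochondrial ribosome. No test of these differences was made. Of 306 pseudogenes named after ribosomal protein genes, most of which are copies pasted into the genome without a promoter, 4 had a peak at an end (1.31%, 0.509% to 3.31%). The peaks at Rpl30-ps3 and Rpl35a-ps7 also lay at an end of a protein-coding gene (Fnbp4 for the first, Pdia4 and Zfp786 for the second). Those at Rpl7a-ps2 (signal value 9.46) and Rps19-ps11 (3.67) did not. Reads of a pseudogene can also match the gene it is named after. How the authors treated such reads is not given in the sources used here, and its part in the pseudogene share was not tested.

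**Figure D1:**
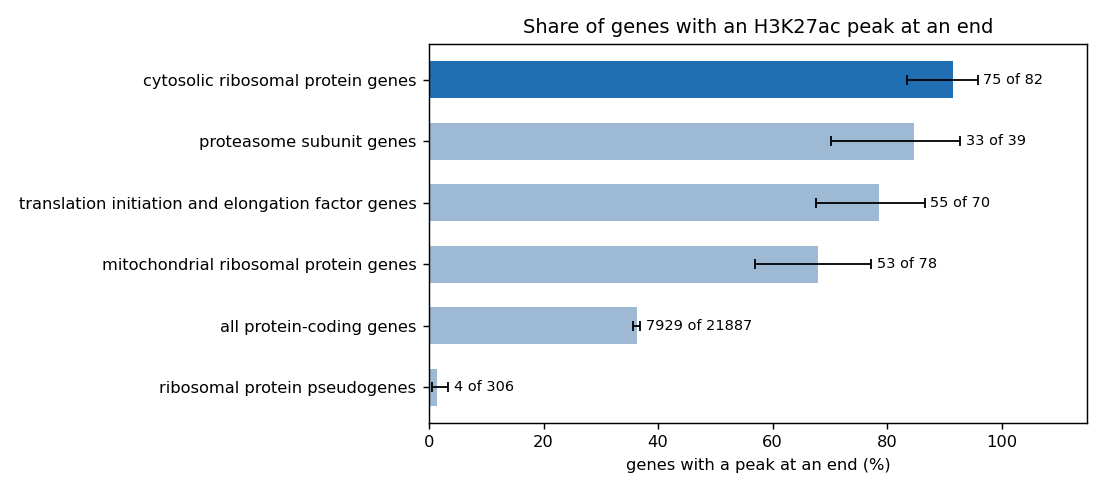
The bars give the share of genes in percent with an H3K27ac peak overlapping 1 kb either side of a gene end, with 95% Wilson intervals over genes as error bars and the counts beside them. The cytosolic ribosomal protein genes stand at 75 of 82, all protein-coding genes at 7929 of 21887 and the ribosomal protein pseudogenes at 4 of 306.

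The 7 members without a peak at an end were Rpl3l, Rpl10l, Rpl39l, Rpl17, Rpl18, Rpl19 and Rpl22, and they fell into 2 kinds. Rpl3l, a paralog used in heart and skeletal muscle, and Rpl10l and Rpl39l, paralogs used mainly in the testis, had no peak anywhere from 1 kb before to 1 kb after the gene. The nearest peak lay 4090 bp from Rpl3l, 366766 bp from Rpl39l and 1121520 bp from Rpl10l. Peaks did lie at their widely used partners, with a signal value of 4.19 at Rpl3, 6.61 at Rpl10 and 3.24 at Rpl39.

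The other 4 had a peak inside the gene. The ends of these genes in the gene table lay over 1 kb from that peak. Rpl18, a large subunit protein whose loss has been found in Diamond-Blackfan anaemia, carried a peak of 2299 bp (chr7:45717159-45719457, signal value 8.42) that contained the start whose sequence is printed above. Rpl19 carried one of 1815 bp (chr11:98026075-98027889, signal value 6.55) that contained a listed start. Rpl17, for which no start was listed here, carried a peak of 2012 bp (chr18:75000108-75002119, signal value 8.94). At Rpl22, a large subunit protein needed for lymphocyte development, the peak was 654 bp wide with a signal value of 3.06 (chr4:152325956-152326609) and lay 230 bp from the nearest listed start. Counted over the whole gene with 1 kb on each side, 79 of 82 members had a peak (96.3%), against 43.8% of all protein-coding genes. Of the 62 members with a listed start, 59 had a peak within 1 kb of one (95.2%), against 38.0% of the 17492 protein-coding genes with a start, and the 3 others were Rpl3l, Rpl10l and Rpl39l.

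Among the 75 members with a peak at an end, the median signal value of the strongest peak was 6.03 (interquartile range 4.99 to 7.70), and the values ran from 2.78 to 18.9. Over the 7929 protein-coding genes with a peak the median was 4.71 (3.52 to 6.55). The middle member stood at percentile 69.8 of those genes, and 58 of the 75 lay above their median. Signal values of at least 4 were found at 66 of the 75, which is 80.5% of the 82 members, against 23.2% of all protein-coding genes. The median was 4.44 (interquartile range 3.46 to 5.69) for the mitochondrial ribosomal protein genes, 4.86 (3.61 to 6.37) for the proteasome genes and 6.40 (4.28 to 7.44) for the translation factor genes. All 3 of these ranges overlapped that of the cytosolic ribosomal protein genes.

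**Figure D2:**
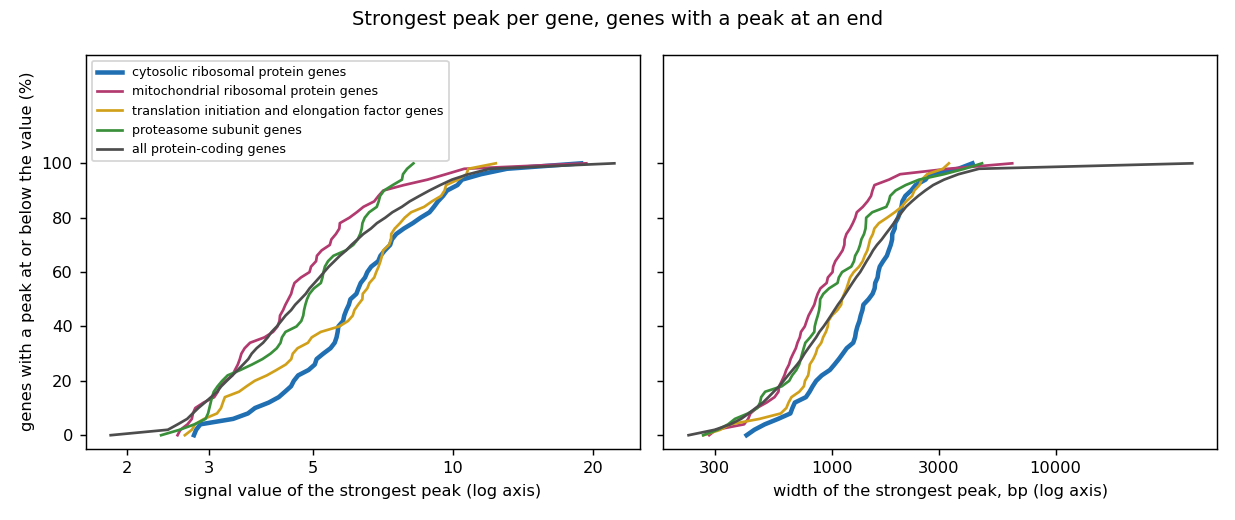
The curves give, for genes with a peak at an end, the percentage of genes whose strongest peak had at most the signal value (left, log axis, a ratio) or the width (right, log axis, bp) on the horizontal axis. The curve of the cytosolic ribosomal protein genes crosses 50% at a signal value of 6.03 and a width of 1459 bp, and that of all protein-coding genes at 4.71 and 1109 bp.

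The strongest peak lay at Rps14, a small subunit protein whose loss underlies the anaemia of the 5q- syndrome. Its signal value was 18.9, its −log10 q was 94.3, and it spanned 2720 bp (chr18:60773997-60776716) and ranked 8 of the 22948 peaks by signal value. Rps27, a zinc finger protein of the small subunit, followed at 14.1, with −log10 q of 60.1 (chr3:90211946-90213992, rank 69). Its peak of 2047 bp covered the whole gene of 982 bp and also reached an end of Rab13 and of Nup210l. The next were Rpl13a, known also for silencing inflammatory messages (11.9, chr7:45127258-45128817), Rps13 (11.5, chr7:116332600-116335190) and Rpl9 (10.6, chr5:65390179-65392323). Rps28 (10.3) and Rps15 (10.2) also passed 10. Of the strongest peaks of members, 7 ranked among the top 500 of the list, 26 among the top 2000 and 57 among the top 5000. These ranks also count peaks away from gene ends and do not compare members with other genes. The median signal value was 3.27 over the list and 4.71 over the strongest peaks of all protein-coding genes with a peak. Among those genes, Rps15, the last of the 7, stood at percentile 94.7. Rps3, the last of the 26, stood at percentile 79.1, and Rps12, the last of the 57, at percentile 53.8.

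The weakest was Rps10, a small subunit protein, at 2.78, with −log10 q of 1.67 in a peak of 672 bp (chr17:27634372-27635043). Rpl7 (chr1:16103518-16104912) and Rps4x (chrX:102188517-102189142) had the same signal value of 2.81 and the same −log10 q of 1.67. The signal value was 2.87 at Rpl36a and 3.24 at Rpl39. In all, 8 members had −log10 q under 5, among them also Rpl14 and Rps21, each with a signal value of 3.64. With 1 pooled list no error belongs to a single value, so the order of members with close values says nothing. Reads of these genes can also match their pseudogenes, and how the authors treated reads with several matches is not given in the sources used here. Of the 82 members, 61 had a pseudogene named after them in the table and the most was 23, for Rpl31 and Rps12, whose signal values were 8.51 and 4.93. Over the 75 members with a peak, the Spearman correlation between the number of named pseudogenes and the signal value was -0.080, a description in which all points share the same libraries.

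**Figure D3:**
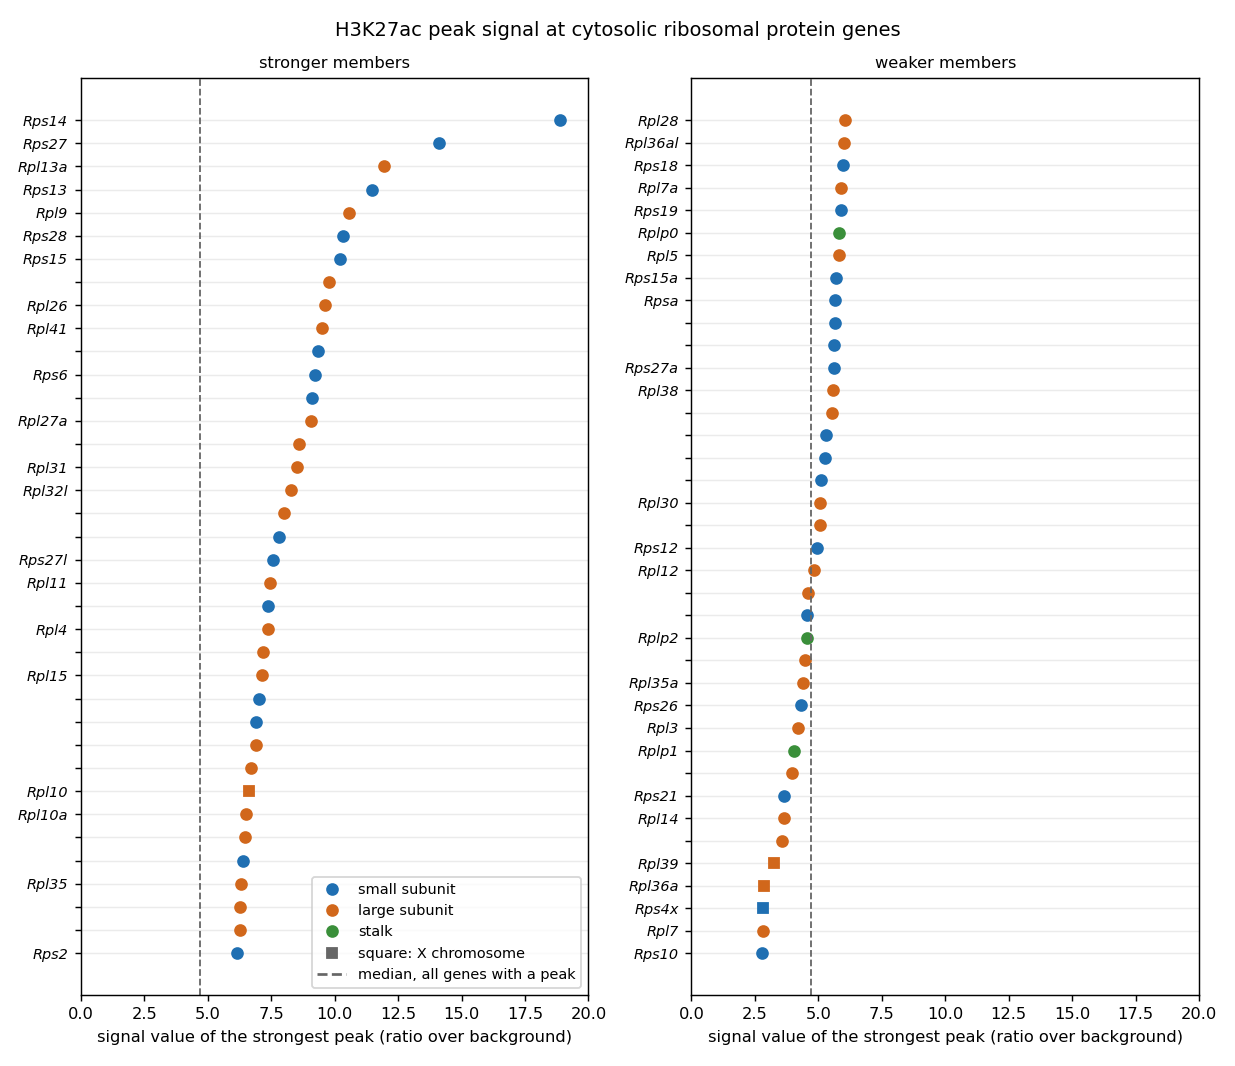
Each point is the signal value (a ratio over background) of the strongest peak at an end of 1 member, with the 75 members split into the stronger (left) and the weaker (right), the dashed line at the median of all genes with a peak, squares for the X chromosome and names for genes the text gives. Rps14 at 18.9 and Rps27 at 14.1 stand to the right, and 3 of the 4 X-linked genes are among the 5 weakest members.

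Among the members of the large subunit, Rpl5 and Rpl11 form a particle with the 5S ribosomal RNA that also restrains Mdm2 and so raises p53. Their signal values were 5.81 and 7.47, with −log10 q of 12.9 and 20.7. The stalk genes had 5.81 at Rplp0, the same value as Rpl5, 4.56 at Rplp2 and 4.04 at Rplp1, the last 2 below the median of all genes with a peak. Rps27a, which is made fused to ubiquitin, had 5.63, while Fau, fused to a ubiquitin-like protein, had 4.26. Fau is not matched by the symbol rule, nor are Rps3a1 (8.11), a core small subunit gene, and Rack1 (4.28), a scaffold on the small subunit. Each of these 3 had a peak at an end with −log10 q of at least 5. The median was 5.97 (range 2.78 to 18.9) over the 31 small subunit genes and 6.27 (2.81 to 11.9) over the 41 large subunit genes with a peak, a difference that was not tested.

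The 4 X-linked members all had a peak. The strongest peak had a signal value of 2.81 at Rps4x, 2.87 at Rpl36a, 3.24 at Rpl39 and 6.61 at Rpl10. The median of these 4 was 3.06, against 6.15 over the 71 autosomal members with a peak, and the groups overlapped, since Rpl10 lay above the autosomal median and Rps10 and Rpl7 lay as low as Rps4x. The X chromosome was lower in general in this list. Over all protein-coding genes with a peak the median signal value was 3.88 on the X chromosome and 4.74 on the autosomes, and a peak lay at an end of 20.2% of X-linked protein-coding genes, against 37.4% of autosomal ones. The part of this in the values of the 4 members was not tested. At Rpl10 the strongest peak lay wholly before the listed start, from -1497 to -151 bp.

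Several ribosomal protein genes have an expressed paralog, and these also carried peaks. Rps27l, which p53 induces, had a signal value of 7.59, against 14.1 at Rps27. Rpl36al on chromosome 12 had 5.998 and its X-linked partner Rpl36a had 2.87. Rpl22l1, which can take the place of Rpl22 in the ribosome, had a peak of 866 bp at 7.04, and the peak inside Rpl22 stood at 3.06. Rpl7l1 (2.79) and Rpl7 (2.81) both lay near the bottom. Rpl7l1 and Rpl22l1 do not match the symbol rule and were not counted as members. Rpl32l, which does match, lies within the gene Map7, and its only peak (8.29, 4231 bp wide) ended 842 bp before its start and covered no base of it.

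The list of 21 genes mutated or lost in inherited or acquired anaemia contained 20 with a peak at an end (95.2%, beside 91.5% of all members and 36.2% of all protein-coding genes), the exception being Rpl18 with the inner peak described above. Their median signal value was 6.76 (range 2.78 to 18.9), beside 5.97 (2.81 to 11.9) for the 55 other members with a peak. The strongest were Rps14 (18.9), Rps27 (14.1) and Rps28 (10.3). The weakest were Rps10 (2.78), Rps26 (4.30) and Rpl35a (4.37). Rps19, the gene most often mutated in Diamond-Blackfan anaemia, had a signal value of 5.88 in a peak of 3081 bp, the third widest among the members. Rps14 and Rps27 lay above every member outside the list, and the other genes of the list with a peak lay within or, for Rps10, just below the range of those members.

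The strongest peaks of the members had a median width of 1459 bp (interquartile range 1010.5 to 1885.5 bp), against 1109 bp (685 to 1781 bp) for all protein-coding genes with a peak. The widest were at Rps15a (4253 bp), Rpl32l (4231 bp), Rps19 (3081 bp), Rps14 (2720 bp) and Rps2 (2649 bp). The narrowest were at Rpl14 (416 bp), Rpl36a (435 bp), Rps21 (468 bp), Rplp0 (503 bp) and Rpl3 (536 bp). Width and signal value went together, with a Spearman correlation of 0.56 over the 75 members and 0.72 over all genes with a peak. The points share the same libraries and caller, and a stronger peak passes the caller's threshold over more bases, so this is a description only. Rps15a (5.69) and Rps19 (5.88) combined wide peaks with middling signal values. The median member gene was 3169.5 bp long, against 17169 bp for all protein-coding genes, and peaks covered a median of 39.2% of the member genes. Gene length and signal value had a Spearman correlation of -0.045 over the members.

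**Figure D4:**
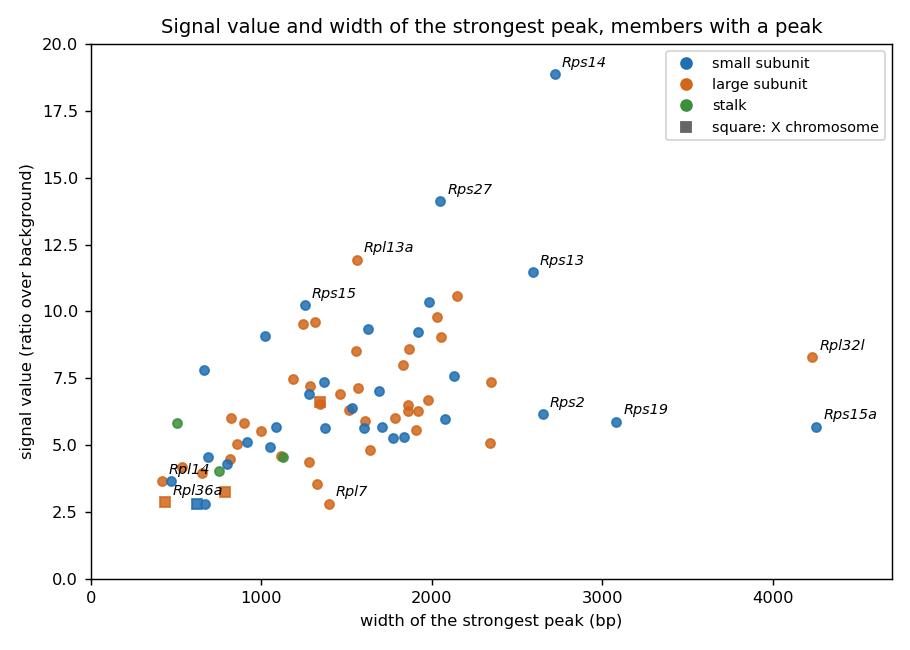
Each point is the strongest peak of 1 of the 75 members with a peak at an end, by its width in bp and its signal value (a ratio over background), coloured by subunit and with squares for the X chromosome. Rps14 lies highest at 18.9, and Rps15a and Rpl32l lie furthest right at 4253 and 4231 bp with signal values of 5.69 and 8.29.

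For 56 of the members with a peak at an end, a start and strand were listed, and the summit could be placed. The median summit lay 328 bp inside the gene (interquartile range 242 to 431 bp), against 277 bp (-278.5 to 493 bp) for the 6499 protein-coding genes with a peak and a start. At 49 of the 56 the summit was inside the gene and within 1000 bp of the start (87.5%), beside 58.5% of all genes. In 25 of the 56 the whole peak lay after the start (44.6%, beside 37.6% of all genes). The 7 members with a summit before the start were Rpl10, Rpl14, Rpl27a, Rpl32l, Rps2, Rps18 and Rps28. The upstream edge of the peak had a median of -18 bp and the edge on the gene side a median of 1196 bp, against -265 bp and 875 bp for all genes.

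**Figure D5:**
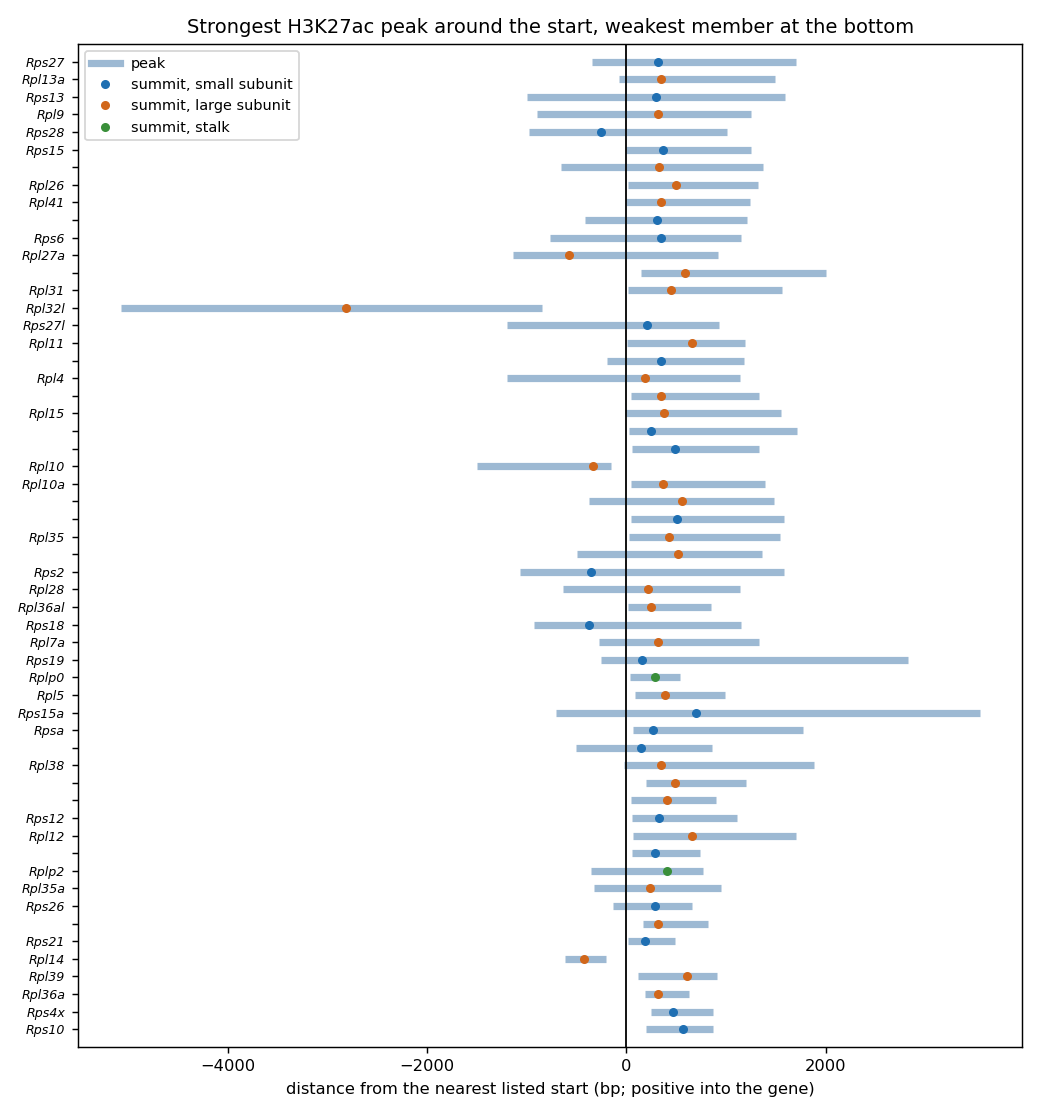
Each bar is the strongest peak at an end of 1 of 56 members, drawn by its distance in bp from the nearest listed start with positive values into the gene, and each dot its summit, with the strongest member at the top. Of the 56 summits 49 lie to the right of the start, with a median of 328 bp, and the peak of Rpl32l lies apart to the left.

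A second peak was found at 21 of the 75 members, or 28.0%, against 24.0% of all genes with a peak. Of the 17 with a listed start, 13 had peaks centred on both sides of it. At Rpl14, the upstream peak (416 bp, signal value 3.64) and the peak inside the gene (788 bp, 3.18) were both weak. Rpl13a was the 1 member with 3 peaks, the strongest at its start (11.9). The strongest peak of 20 members also reached an end of another protein-coding gene (26.7%, against 31.5% of all genes with a peak). The strongest of these were at Rps27 (with Rab13 and Nup210l), Rpl9 (with Lias), Rps28 (with Kank3 and Ndufa7), Rpl41 (with Zc3h10) and Rpl4 (with Zwilch). The list cannot say which gene such a peak belongs to. Shared peaks had a median signal value of 5.77 and unshared ones 6.30.

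Small nucleolar RNA genes lay inside 29 of the 82 members (35.4%), against 1.70% of all protein-coding genes. Rpl4 held 5 of them and Rpl13a and Rpl7a held 4 each. The median signal value was 5.74 (range 3.24 to 11.9) for the 28 hosts with a peak and 6.30 (2.78 to 18.9) for the 47 other members.

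The 62 listed promoters of 300 bases (250 before and 50 after the outermost start) were searched for short letters known from ribosomal protein promoters, as a description of sequence and not of binding. A run of at least 8 pyrimidines reached within 30 bases of the start in 41 of 62 members (66.1%), against 26.4% of the promoters of 17492 protein-coding genes and 24.2% of those with a peak. The letters CTTTCC on the strand of the gene occurred within 30 bases of the start in 10 (16.1%, against 2.71% of all). CCGGAAG, the core of ETS factors such as GABP, occurred on either strand in 24 (38.7%, against 11.9% of all and 21.7% of those with a peak). AAGATGG, the core of YY1, occurred in 9 (14.5%, against 6.35% of all and 8.23% of those with a peak). GGGCGG, the Sp1 box, occurred in 36 (58.1%), above all promoters (46.3%) and below those with a peak (66.2%). TATAAA occurred in 7 (11.3%, against 13.3% and 6.91%), CACGTG, the E-box of Myc, in 5 (8.06%, against 7.91% and 10.6%) and the palindrome of NRF1 in 1 (1.61%, against 1.33% and 2.60%). The palindrome of 10 bases that ZBTB33 is known to bind, whose letters are the capitals in the first 5 lines printed next, occurred in 5 (8.06%, against 0.726% and 1.43%). CTTTCC can be part of a pyrimidine run, while none of the other letters contains another. The median number of CG pairs was 21 in the members' promoters, 13 in all and 22 in those with a peak.

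The ZBTB33 palindrome is shown in its 5 members, since it was the rarest of these letters to recur among them. The ETS core is shown in 3 members that held it just after the start and in Rpl39l, which has no peak. Capitals mark the matched letters, on the strand of the gene.
Rps28, chr17:33824545-33824574, minus strand: accgcgtgcggTCTCGCGAGAgcgaaagtg
Rpl26, chr11:68901529-68901558, plus strand: cgctccgagacTCTCGCGAGAtctcgcggc
Rps6, chr4:86857400-86857429, minus strand: ccgccggctgtTCTCGCGAGAacttagagc
Rps19, chr7:24884573-24884602, plus strand: gcactccgaaaTCTCGCGAGActcgacgcc
Rpl12, chr2:32961647-32961676, plus strand: gggccagcggtTCTCGCGAGAgctgagctt
Rpl26, ETS core, chr11:68901559-68901588, plus strand: aacttacagaaCCGGAAGtcgcgtgtagtt
Rpl31, ETS core, chr1:39367848-39367877, plus strand: ctccccgtgacCCGGAAGttgtacggctac
Rpl11, ETS core, chr4:136053369-136053398, minus strand: aggccacggggCCGGAAGtctccctctctc
Rpl39l, ETS core, chr16:10170125-10170154, plus strand: atttgccgtacCCGGAAGcgctggaagcta
The 5 genes with the palindrome had signal values of 10.3 at Rps28, 9.61 at Rpl26, 9.21 at Rps6, 5.88 at Rps19 and 4.83 at Rpl12, which covers values well above and close to the median of 4.71 of all genes with a peak. Rpl10a (6.52) held the same palindrome before a second, inner start, which was not counted. Rpl39l, without a peak, held the ETS core at 2 places and CTTTCC 6 bases before its start. The 22 members with the ETS core and a peak had a median signal value of 6.23 (range 2.78 to 9.61) and the 34 without it 6.33 (2.81 to 14.1). The 8 with CTTTCC at the start and a peak had 6.72 (2.78 to 14.1) and the 48 without it 6.21 (2.81 to 11.5).

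Other genes of ribosome supply were counted from lists chosen for what they do, beside 36.2% of all protein-coding genes with a peak at an end and the median signal value of 4.71 over those. Of 26 ribosome assembly genes, 19 carried one at an end (73.1%), with a median signal value of 4.37. The strongest were Nop58 (9.77), a core protein of box C/D particles, Sbds (9.21), which helps release Eif6 from the large subunit, and Mdn1 (7.38). The weakest were Nob1 (2.35), Tsr1 (2.48) and Nhp2 (2.75), and the first 2 of these had −log10 q of 0.799, short of a q-value of 0.05. Those without a peak at an end were Bop1, Bms1, Nle1, Rrp9, Rrs1, Utp20 and Npm1, of which Npm1 had a peak inside the gene (3.06). Of 17 genes of RNA polymerases I and III and their factors, 12 had one (70.6%), with a median of 3.82. The strongest were Polr3c (6.37), Polr1d (6.24) and Polr3d (5.72) and the weakest Polr3e (2.90), Polr3b (2.997) and Taf1b (3.21). Polr1e, Taf1a, Polr3a, Gtf3a and Ubtf had none at an end, though Ubtf, the factor that opens ribosomal DNA, had 3 peaks inside the gene. Of 16 genes listed for the control of translation of pyrimidine-run messages, 13 had a peak at an end (81.2%), with a median of 4.44. The list also held Myc (4.44), named above for its E-box. Rheb, the activator of mTOR, had 11.5, Eif4ebp2, a brake on the cap-binding protein, 7.87 and Eif4e, that protein, 6.76. The lowest were Tsc2 (2.91), Rps6kb1 (2.997) and Rps6kb2 (3.26). Larp1, Larp4 and Rptor had peaks inside the gene and none at an end.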

How the data were processed

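One peak list of the whole series was used. Per the submitters' processing notes, the tools named are BWA and MACS2 and the build is mm10. The name of the deposited list calls it an overlap set of optimal peaks, and the rule behind this is not given. Versions, other filters and the treatment of reads with several matches are not given in the sources used here. The list as deposited gives for each peak a score, an enrichment ratio (the signal value), a −log10 p-value and a −log10 q-value, all pooled over the 4 H3K27ac libraries. The score and the −log10 p were not used. Read depth is unknown.

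Gene ends came from a RefSeq table of GRCm38.p6, and starts, strands and promoter sequences from a RefSeq promoter table, which held 62 of the 82 members. Positions are 1-based. A gene had a peak when a peak overlapped 1 kb either side of an end, and its strongest peak was the one with the highest signal value. All members were counted. Those named had no peak, were among the 5 strongest, weakest, widest or narrowest, had several or shared peaks, belonged to a small list, or led or closed the anaemia and other ribosome lists (3 each way). Rpl32l, the genes of single promoter or pseudogene counts and a few other examples were named after their values were seen. Some genes these rules would name are not reported here, though they stay in all counts. The members and lists were chosen with earlier results of these data known. One listed polymerase gene and Rps4l did not match a protein-coding gene of the table. Alternatives were stricter lists, other windows, the summit, the start alone, merged peaks and changed membership. Overlap and motif counting was tested on simulated data. Python 3.11.15, pandas 2.3.3, scipy 1.17.1 and matplotlib 3.10.9 were used.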

Additional observations from a re-analysis of the deposited data

How the results depend on the processing

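Of 82 recomputed values, 63 stayed within the interval of the value as reported (a Wilson interval for shares, a binomial interval of the median for the others) and 19 moved. The share of members was 81.7% at −log10 q ≥ 5, 80.5% at a signal value ≥ 4 and 96.3% over the whole gene, an alternative chosen after seeing the data. The median width became 1688 bp when peaks within 1 kb were merged, and the median signal value moved under no alternative. Under these same limits on q and on the signal value, the mitochondrial ribosomal protein genes fell to 44.9% and 43.6%, the translation factor genes to 61.4% in both and the proteasome genes to 59.0% in both. The pseudogenes had 5.23% with 2.5 kb, or 16 of 306. All protein-coding genes stood at 24.0% for −log10 q ≥ 5, 34.4% for q ≤ 0.05, 23.2% for a signal value ≥ 4, 33.9% with 500 bp, 39.3% with 2.5 kb, 33.3% by the summit, 38.0% by the start alone and 43.8% over the whole gene. Leaving out Rpl32l or members with shared peaks was also chosen after seeing the data. The start alone could not be applied to pseudogenes. No paired analysis was possible because the peaks were deposited pooled, with no values per replicate, and single libraries could not be left out for the same reason. Without depth, a gene without a peak is one where none passed the authors' calling and the overlap rule named for the list.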

Other observations

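Peaks away from gene ends were also counted around the ribosomal protein genes. Peaks whose summit lay over 1 kb from every end of a protein-coding gene were present within 50 kb of an end at 50 of the 82 members (61.0%), against 44.0% of all protein-coding genes, 47.4% of mitochondrial ribosomal protein genes, 48.6% of translation factor genes and 66.7% of proteasome genes. That count includes peaks inside the genes, such as those of Rpl17 and Rpl22 described above. Without peaks inside the gene itself or within 1 kb of any listed start, a count chosen after seeing the data, 41 members had one (50%), against 32.3% of all protein-coding genes, 34.6%, 37.1% and 56.4% of the same lists in the same order. By this count Rps19 had 4 such peaks and Rpl18 and Rpl19 had 2 each.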
